A study of Mus musculus with 12 samples.

Results

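The angiopoietin and VEGF system was followed through 10 genes, chosen by name as the ligands, receptors and a target gene by which heart muscle and the endothelium that lines it communicate. They were 4 ligands (Angpt1, Angpt2, Vegfa and Vegfc), 5 receptors (Tek, Tie1, Kdr, Flt1 and Flt4) and Esm1, out of 19938 genes measured. The choice was made with earlier results of these data known. Each of the 10 had exactly 1 probe set that carried its symbol alone, and that probe set was used. The hearts were dissected from mouse embryos at E8.75, when the heart is a looping tube, and Nkx2-5 and Tbx5 are transcription factors of its muscle. The groups were Nkx2-5 KO hearts, Tbx5 KO hearts, double KO hearts (Tbx5 KO;Nkx2-5 KO) and WT hearts, with 3 Affymetrix arrays each that the titles call biological replicates. The knockout alleles, the strain, any Cre line and the number of hearts pooled per array are not given in the sources used here, so the p-values measure the spread between these arrays.

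Angiopoietin-1 is made by heart muscle and activates the receptor TIE2, the product of Tek, on endocardial and endothelial cells. Angiopoietin-2 comes mainly from endothelium and can act on the same receptor as an antagonist, while TIE1 is a partner of TIE2 with no classical ligand of its own. VEGF-A binds KDR, the main signalling receptor, and FLT1, which binds it tightly and can act as a decoy, while VEGF-C acts through FLT4 and, when processed, KDR. Oxygen shortage raises Vegfa through hypoxia-inducible factors, and Esm1, which encodes the proteoglycan endocan, is a VEGF-induced gene of sprouting endothelium.

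The sequence just before the annotated start is shown for the 3 genes that rose in double KO hearts and whose window lies wholly outside the gene, so that their start regions can be compared. Each run is 250 bases from RefSeq (GRCm38.p6), written 5′ to 3′ on the strand of the gene, and capitals mark GC boxes on either strand. The windows are chr17:46032378-46032627 on the minus strand for Vegfa, chr8:54077282-54077531 on the plus strand for Vegfc and chr13:113209409-113209658 on the plus strand for Esm1.
Vegfa: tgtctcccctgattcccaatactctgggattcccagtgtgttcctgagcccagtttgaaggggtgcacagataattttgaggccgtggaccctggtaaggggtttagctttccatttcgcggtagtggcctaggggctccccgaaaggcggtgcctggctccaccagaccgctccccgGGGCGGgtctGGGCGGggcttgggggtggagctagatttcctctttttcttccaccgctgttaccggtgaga
Vegfc: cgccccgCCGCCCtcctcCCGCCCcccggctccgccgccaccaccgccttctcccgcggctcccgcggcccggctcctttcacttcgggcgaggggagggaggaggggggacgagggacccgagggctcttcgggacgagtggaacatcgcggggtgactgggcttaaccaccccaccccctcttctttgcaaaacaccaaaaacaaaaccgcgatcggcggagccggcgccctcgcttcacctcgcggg
Esm1: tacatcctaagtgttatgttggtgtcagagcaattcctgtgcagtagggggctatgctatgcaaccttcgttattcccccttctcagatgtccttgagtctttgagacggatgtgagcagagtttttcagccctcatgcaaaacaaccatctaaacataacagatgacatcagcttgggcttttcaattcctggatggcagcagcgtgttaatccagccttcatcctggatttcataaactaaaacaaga

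The 3 windows differ in base composition. G and C made up 59.2% of the Vegfa window, 71.6% of the Vegfc window and 44.0% of the Esm1 window, beside a median of 52.4% over 32851 mouse promoter windows. A GC box (GGGCGG, either strand) starts 72 and 62 bases before the Vegfa start and 243 and 232 bases before the Vegfc start, and 32.7% of all windows hold one. Windows were held for 8 of the 10 genes, and the promoter reference had no entry for Angpt1 or Angpt2, so neither was searched. A T-box core (AGGTGT, 11.8% of all windows), an NKX2-5 site (TNAAGTG, 10.1%) and a hypoxia response core (ACGTG, 16.6%) were each present in 0 of the 8 first windows, which says only that these letters are not in these bases. Of those windows 5 lay outside the gene and 3 (Tek, Kdr and Flt1) overlapped it. A second Vegfa window, inside the gene, holds a hypoxia response core 211 bases before its start. An ETS site (AGGAAG, 29.5% of all windows), the core bound by a family that includes endothelial regulators, was present in 2, those of Tie1 and Flt1. All motifs were searched on both strands, and no match overlapped another.

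The groups also differed in ways other than the labelled genotype. Array medians were 8.05 to 8.25 log2 units. Nkx2-5 averaged 8.94 ± 0.21 in Nkx2-5 KO, 9.35 ± 0.04 in Tbx5 KO, 9.08 ± 0.12 in double KO and 9.35 ± 0.01 in WT hearts (SD, n = 3). Its probe set read lower on every Nkx2-5 KO (8.72 to 9.13) and double KO array (8.97 to 9.21) than on any Tbx5 KO (9.31 to 9.38) or WT array (9.33 to 9.36). Tbx5 averaged 10.32 ± 0.19, 10.53 ± 0.17, 10.60 ± 0.26 and 10.06 ± 0.14 in Nkx2-5 KO, Tbx5 KO, double KO and WT hearts, so its probe set did not check the Tbx5 genotype. The sources used here do not say which part of each gene was removed. Xist, expressed from the inactive X, read 6.59 to 7.03 in Nkx2-5 KO and 6.44 to 8.16 in double KO hearts, against 11.46 to 12.32 in Tbx5 KO and 11.50 to 11.87 in WT hearts. The Y-linked Eif2s3y had the reverse pattern, at 10.33 to 10.67 in Nkx2-5 KO and 10.37 to 10.61 in double KO hearts against 5.13 to 5.68 in Tbx5 KO and 5.07 to 6.92 in WT hearts, as did Uty (9.29 to 9.89 and 9.22 to 9.49 against 5.44 to 6.01 and 5.38 to 6.67). Loss of Nkx2-5 and sex therefore cannot be told apart, whereas Tbx5 KO against WT and double KO against Nkx2-5 KO each compare arrays of 1 sex pattern. That pattern varied within groups: the 4 measured sex-linked genes averaged 7.26, 7.30 and 8.08 on WT replicates 1, 2 and 3. The Tbx5 KO arrays also carried placental genes, with a list mean of 7.35 to 7.43 against 6.71 to 6.79 in WT hearts.

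Among the ligands, Angpt1 moved most and moved down. Its probe set (10428376; chromosome 15, 42424667 to 42676977, GRCm38.p6) read 9.39, 8.89 and 9.42 log2 units in Nkx2-5 KO hearts, 9.43, 9.19 and 9.94 in Tbx5 KO hearts, 6.82, 7.16 and 7.31 in double KO hearts, and 11.24, 11.24 and 11.31 in WT hearts. Every knockout array lay below every WT array, every double KO array lay below every single KO array, and the ranges of both single KO groups overlapped. Relative to WT, Angpt1 changed by -2.03 ± 0.19 on the log2 scale in Nkx2-5 KO hearts (± SE here and below, n = 3 arrays in each group; adjusted p = 0.00023), by -1.74 ± 0.19 in Tbx5 KO hearts (adjusted p = 0.000554) and by -4.17 ± 0.19 in double KO hearts (adjusted p = 3.34e-07). The last is an 18.0-fold difference between group means, and only 2 of the 19938 genes had a lower change.

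In the pairwise comparisons of knockouts Angpt1 was lower in double KO hearts, with differences of -2.14 ± 0.19 from Nkx2-5 KO (adjusted p = 0.0001) and -2.43 ± 0.19 from Tbx5 KO hearts (adjusted p = 2.83e-05). The Tbx5 KO minus Nkx2-5 KO difference was 0.29 with a 95% interval of -0.13 to 0.71 (adjusted p = 0.632). Among all genes of an array, Angpt1 stood at percentiles 15.4 to 24.8 on double KO arrays and 91.3 to 92.1 on WT arrays. The table holds no detection calls, so whether the double KO signal lay above background was not tested.

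Vegfa, the main VEGF ligand, moved the other way. Its values (10451198; chromosome 17, 46016993 to 46032377) were 11.73, 11.53 and 11.75 in Nkx2-5 KO hearts, 11.23, 11.02 and 11.38 in Tbx5 KO hearts, 11.94, 11.85 and 11.65 in double KO hearts, and 10.42, 11.03 and 10.44 in WT hearts. All Nkx2-5 KO and double KO arrays exceeded all WT arrays, whereas the lowest Tbx5 KO array lay just under the highest WT array. Vegfa rose by 1.04 ± 0.16 in Nkx2-5 KO (adjusted p = 0.00567) and by 1.18 ± 0.16 in double KO hearts (adjusted p = 0.000236), and its difference in Tbx5 KO hearts was 0.58 ± 0.16 (adjusted p = 0.0876). Double KO hearts exceeded Tbx5 KO hearts by 0.61 ± 0.16 (adjusted p = 0.0277), and differed from Nkx2-5 KO hearts by 0.14 with an interval of -0.20 to 0.49 (adjusted p = 0.622). The call against Tbx5 KO was lost when any of 4 arrays was left out (Tbx5 KO replicate 1 or 2, or double KO replicate 1 or 2; adjusted p 0.0732 to 0.0976).

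Vegfc, the ligand best known for lymphatic and venous growth, followed the same order of groups. The probe set (10571788; chromosome 8, 54077532 to 54186454) read 10, 9.88 and 9.88 in Nkx2-5 KO, 8.74, 9.26 and 9.55 in Tbx5 KO, 9.85, 10.12 and 9.86 in double KO, and 8.03, 9.12 and 8.80 in WT hearts. The Nkx2-5 KO and double KO arrays kept within a narrow band above all WT arrays, and Tbx5 KO overlapped WT. It rose by 1.27 ± 0.24 in Nkx2-5 KO (adjusted p = 0.0149, and 0.0652 without Nkx2-5 KO replicate 1) and by 1.29 ± 0.24 in double KO hearts (adjusted p = 0.00216). The Tbx5 KO difference was 0.53 ± 0.24 (adjusted p = 0.33). Double KO minus Tbx5 KO was 0.76 ± 0.24 (adjusted p = 0.0682, and 0.0461 without Tbx5 KO replicate 3).

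Angpt2 was higher in each knockout group by a similar amount. Its values (10577315; chromosome 8, 18690263 to 18741562) were 9.05, 9.02 and 8.85 in Nkx2-5 KO, 8.92, 8.96 and 8.72 in Tbx5 KO, 8.88, 8.91 and 8.92 in double KO, and 8.66, 8.03 and 7.97 in WT hearts. No knockout array fell to the highest WT array, and the knockout groups overlapped each other. The rises were 0.75 ± 0.15 in Nkx2-5 KO (adjusted p = 0.0187), 0.65 ± 0.15 in Tbx5 KO (adjusted p = 0.049) and 0.69 ± 0.15 in double KO hearts (adjusted p = 0.00646). The double KO level differed from Nkx2-5 KO by -0.07 (interval -0.40 to 0.27) and from Tbx5 KO by 0.04 (interval -0.30 to 0.37). The Nkx2-5 KO call was lost without WT replicate 3 (adjusted p = 0.0722) or Nkx2-5 KO replicate 1 (0.0835), and the Tbx5 KO call was lost without WT replicate 2 or 3 or any 1 of the Tbx5 KO arrays (0.0755 to 0.174). Only the arrays compared also left both uncalled (0.0566 in Nkx2-5 KO and 0.135 in Tbx5 KO), and the Tbx5 KO call was lost with renewed quantile normalization (0.0549) and median centring (0.0646), so it held in 6 of 14 alternatives.

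**Figure D1:**
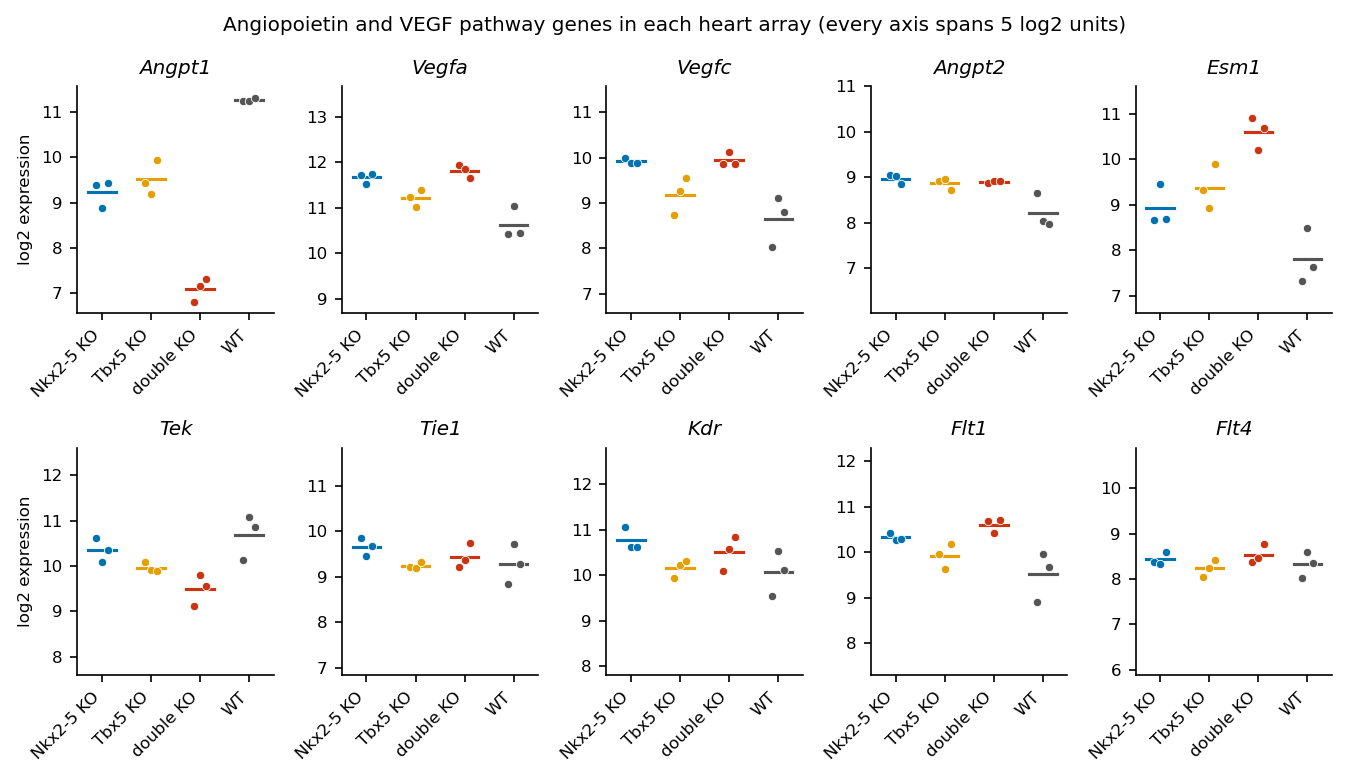
Log2 expression (vertical axes, each spanning 5 log2 units) of the 10 genes on every array, by group from Nkx2-5 KO, Tbx5 KO and double KO to WT. Points are arrays and bars are group means; Angpt1 sits at 6.82 to 7.31 in double KO against 11.24 to 11.31 in WT hearts, while Tie1 and Flt4 overlap WT in every knockout group.

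Of the receptors, Tek, which encodes the angiopoietin receptor TIE2, was lower in double KO hearts. Its values (10505954; chromosome 4, 94739086 to 94874976) were 10.61, 10.10 and 10.35 in Nkx2-5 KO, 10.08, 9.92 and 9.89 in Tbx5 KO, 9.13, 9.80 and 9.57 in double KO, and 10.14, 11.09 and 10.85 in WT hearts. Double KO and Tbx5 KO arrays lay below every WT array, and Nkx2-5 KO arrays overlapped WT. Tek fell by 1.19 ± 0.23 in double KO relative to WT hearts (adjusted p = 0.00236). The differences were -0.34 ± 0.23 in Nkx2-5 KO (adjusted p = 0.517) and -0.73 ± 0.23 in Tbx5 KO hearts (adjusted p = 0.127, and 0.027 without WT replicate 1). Double KO minus Nkx2-5 KO was -0.86 ± 0.23 (adjusted p = 0.048), a call lost when any single array of either group was left out (adjusted p 0.058 to 0.171).

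Flt1, the VEGF-A receptor with decoy activity, rose in double KO hearts. It read (10535807; chromosome 5, 147561604 to 147726438) 10.43, 10.26 and 10.29 in Nkx2-5 KO, 9.95, 9.62 and 10.19 in Tbx5 KO, 10.69, 10.43 and 10.70 in double KO, and 8.91, 9.95 and 9.68 in WT hearts. The Nkx2-5 KO and double KO ranges lay above WT, and the Tbx5 KO range overlapped it. The change was 1.09 ± 0.22 in double KO (adjusted p = 0.00333), against 0.81 ± 0.22 in Nkx2-5 KO (adjusted p = 0.0569; 1.03 and 0.0207 without WT replicate 2, 0.51 and 0.164 without WT replicate 1) and 0.41 ± 0.22 in Tbx5 KO hearts (adjusted p = 0.429). Double KO minus Tbx5 KO was 0.69 ± 0.22 (adjusted p = 0.0692).

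The other 3 receptors passed the test in 0 of the 7 comparisons. Kdr (10530692; chromosome 5, 75932827 to 75979072) read 11.07, 10.63 and 10.61 in Nkx2-5 KO, 9.93, 10.22 and 10.32 in Tbx5 KO, 10.09, 10.58 and 10.83 in double KO, and 9.55, 10.54 and 10.11 in WT hearts. Only its Nkx2-5 KO arrays were clear of WT, and the difference there was 0.70 ± 0.24 (adjusted p = 0.128; 0.94 and 0.0435 without WT replicate 2, 0.44 and 0.417 without WT replicate 1), beside 0.09 in Tbx5 KO (interval -0.44 to 0.61) and 0.43 in double KO hearts (interval -0.09 to 0.96). Tie1 (10515771; chromosome 4, 118471191 to 118489849) spanned 9.46 to 9.85 in Nkx2-5 KO, 9.20 to 9.32 in Tbx5 KO, 9.22 to 9.74 in double KO, and 8.84 to 9.72 in WT hearts. Its intervals against WT were -0.04 to 0.81, -0.46 to 0.40 and -0.26 to 0.59 for the knockout groups in that order. Flt4 (10375578; chromosome 11, 49609679 to 49652739), the VEGF-C receptor, spanned 8.34 to 8.59, 8.05 to 8.41 and 8.37 to 8.76 in the same 3 knockout groups and 8.03 to 8.59 in WT hearts. The Flt4 differences of 0.11, -0.09 and 0.21 each had an SE of 0.15, and each 95% interval included 0 (-0.22 to 0.44, -0.42 to 0.24 and -0.12 to 0.54). These intervals leave room for moderate changes in either direction and do not show that the receptors kept their level.

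Esm1, the VEGF target, had the largest rise of the 10 in Tbx5 KO and double KO hearts, while in Nkx2-5 KO hearts Vegfc rose more and Esm1 did not pass the test. Its values (10407281; chromosome 13, 113209659 to 113218104) were 8.66, 9.45 and 8.68 in Nkx2-5 KO, 9.33, 8.92 and 9.89 in Tbx5 KO, 10.91, 10.21 and 10.69 in double KO, and 7.32, 8.48 and 7.64 in WT hearts. Every knockout array exceeded every WT array, and every double KO array exceeded every single KO array. Relative to WT, Esm1 rose by 2.80 ± 0.32 in double KO hearts (adjusted p = 9e-05), a 6.94-fold difference that only 2 genes surpassed, and by 1.57 ± 0.32 in Tbx5 KO hearts (adjusted p = 0.025). The Nkx2-5 KO difference was 1.12 ± 0.32 (adjusted p = 0.0706, and 0.0226 without WT replicate 2). Double KO exceeded Nkx2-5 KO by 1.68 ± 0.32 (adjusted p = 0.0103) and Tbx5 KO by 1.23 ± 0.32 (adjusted p = 0.0282). The Tbx5 KO call was lost without WT replicate 1 or 3 or Tbx5 KO replicate 1 or 3 (adjusted p 0.0713 to 0.0954), and the call of double KO over Tbx5 KO without Tbx5 KO replicate 1 or 2 or double KO replicate 1 or 3 (0.0655 to 0.1).

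**Figure D2:**
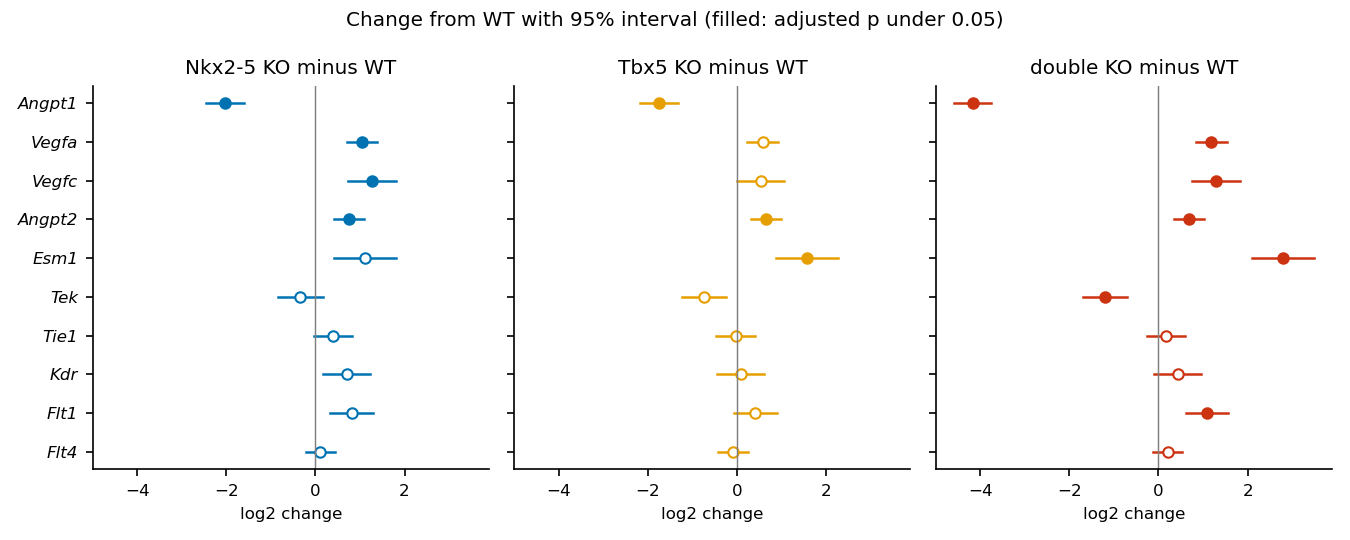
Log2 change from WT (horizontal axes) of each gene, with a panel each for Nkx2-5 KO, Tbx5 KO and double KO, points for the change, lines for the 95% interval and filled points where the adjusted p was under 0.05. Filled points number 4, 3 and 7, and in double KO hearts Angpt1 (-4.17) and Esm1 (2.80) lie at opposite ends.

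Counted together, 7 of the 10 genes passed the test in double KO against WT hearts, 5 higher and 2 lower, where 23.4% of all 19938 genes passed. The median change of the 10 was 0.56 beside 0.06 for all genes, and the count stayed at 7 when each array was left out in turn. In Nkx2-5 KO hearts 4 of 10 passed (3 higher, 1 lower) where 4.43% of all genes did, with medians of 0.73 and 0.00; the count was 2 without Nkx2-5 KO replicate 1 and 7 without WT replicate 2. The calls over all genes, 884 here, were 169 without Nkx2-5 KO replicate 1, 240 without WT replicate 1, 335 without WT replicate 3, and 346 without the third Nkx2-5 KO array. In Tbx5 KO hearts 3 of 10 passed (2 higher, 1 lower) where 2.31% did, with medians of 0.25 and 0.01, and the count was 1 without WT replicate 3, Tbx5 KO replicate 1 or Tbx5 KO replicate 3. There the calls over all genes, 461 here, were 212 to 294 when WT replicate 1 or 3 or any 1 of the Tbx5 KO arrays was left out. These comparisons share the WT arrays, and the share of genes that passed differs between them. Because the 10 genes were chosen with earlier results of these data known, their counts beside those of all genes are a description, not an independent test.

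Between knockouts, 3 of the 10 differed between double KO and Nkx2-5 KO hearts (Esm1 higher, Angpt1 and Tek lower; 5.56% of all genes passed). Another 3 differed between double KO and Tbx5 KO hearts (Vegfa and Esm1 higher, Angpt1 lower; 10.7% of all genes), a count of 1 without Tbx5 KO replicate 1, Tbx5 KO replicate 2 or double KO replicate 1. Between Tbx5 KO and Nkx2-5 KO hearts limma called 0 of the 10 (2.39% of all genes), with 3 at an unadjusted p under 0.05: Vegfa, Vegfc and Kdr, with differences of -0.47, -0.74 and -0.62. In the comparisons within 1 sex pattern, Tbx5 KO against WT and double KO against Nkx2-5 KO, Angpt1 changed by -1.74 and -2.14 and Esm1 by 1.57 and 1.68. Vegfa (0.58 and 0.14), Vegfc (0.53 and 0.02) and Flt1 (0.41 and 0.28) passed the test in neither. Angpt2 (0.65 and -0.07) passed in the first only, and Tek (-0.73 and -0.86) in the second only.

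Ligands and receptors were set side by side on the muscle and endothelial genes of the same arrays. The 20 cardiac muscle genes averaged 12.82 to 12.98 log2 units per array in Nkx2-5 KO, 12.90 to 13.00 in Tbx5 KO, 12.79 on all double KO arrays, and 12.90 to 12.99 in WT hearts. Against WT, 0 of these muscle genes were higher and 1 lower in Nkx2-5 KO (Myl2, a ventricular myosin light chain, -0.41 ± 0.09, adjusted p = 0.0234), 0 higher and 1 lower in Tbx5 KO (Tnni3, cardiac troponin I, -0.45 ± 0.09, adjusted p = 0.0232), and 4 higher and 6 lower in double KO hearts, led by Myl2 (-1.0 ± 0.09, adjusted p = 2.17e-05). Of all genes 4.43%, 2.31% and 23.4% were called, and the 5.0% of the list called in Nkx2-5 KO hearts is near the first. Taken relative to the mean of this muscle list, Angpt1 differed from WT by -1.99 log2 units in Nkx2-5 KO hearts, by -1.74 in those lacking Tbx5 and by -4.02 in the double KO, with no overlap. On the same footing Vegfa was 1.08, 0.58 and 1.34 higher with no overlap, and Vegfc was 1.32, 0.54 and 1.45 higher with overlap in Tbx5 KO hearts only. The changes of Angpt1 and Vegfa from WT had opposite signs on either footing. The list mean lay at 12.79 to 13.00 over all arrays, so this baseline could hardly alter those signs and is no separate test of them. Without that baseline, Vegfa in Tbx5 KO hearts overlapped WT and did not pass the test.

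The 28 endothelial and endocardial genes averaged 9.34 to 9.44 in Nkx2-5 KO, 9.16 to 9.29 in Tbx5 KO, 9.20 to 9.26 in double KO, and 9.08 to 9.40 in WT hearts, so every group's range touched WT. Of them, 2 were higher and 0 lower in Nkx2-5 KO, led by Gata5 (0.72 ± 0.13, adjusted p = 0.0135), an endocardial transcription factor, and 1 was higher and 1 lower in Tbx5 KO, led by Cd34 (-0.91 ± 0.17, adjusted p = 0.0156), a surface sialomucin. In double KO hearts 2 were higher and 6 lower, led by Npr3 (-1.24 ± 0.19, adjusted p = 0.000516), the natriuretic peptide clearance receptor of endocardium. The called shares of 7.14%, 7.14% and 28.6% stood beside 4.43%, 2.31% and 23.4% of all genes, and the double KO share was near that of all genes. Relative to the mean of this list, Tek differed from WT by -0.68 in Tbx5 KO hearts and by -1.15 in the double KO with no overlap, and by -0.47 in Nkx2-5 KO hearts with overlap. Flt1 was 0.68 higher in Nkx2-5 KO and 1.13 higher in double KO hearts with no overlap, and Esm1 was higher by 0.99 in Nkx2-5 KO hearts, by 1.62 in Tbx5 KO hearts and by 2.83 in the double KO, with no overlap. Angpt2 was 0.63 higher in Nkx2-5 KO hearts and 0.70 higher in Tbx5 KO hearts, both with overlap, unlike its values without this baseline. In the double KO Angpt2 was 0.73 higher with no overlap. Kdr was 0.58 higher in Nkx2-5 KO hearts with no overlap, and overlapped WT in Tbx5 KO hearts (0.14) and in the double KO (0.47). Tie1 and Flt4 overlapped WT in each group on this footing. In bulk hearts, fewer cells of a type and less RNA per cell cannot be told apart.

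Both losses were also compared with their combination. Adding the single KO changes gave -3.77 for Angpt1 against -4.17 measured in double KO hearts, a non-additive term of -0.39 ± 0.27 with an interval of -0.99 to 0.20 (adjusted p = 0.752). Angpt1 stood at percentiles 15.4 to 24.8 on double KO arrays, and whether background signal limited this term was not tested. For Esm1 the sum was 2.69 and the measured change 2.80, a term of 0.11 ± 0.46 (interval -0.88 to 1.10, adjusted p = 0.971), and for Tek they were -1.07 and -1.19. Vegfa, Vegfc and Angpt2 lay nearer to WT in double KO hearts than their sums, which were 1.62, 1.81 and 1.40 against measured changes of 1.18, 1.29 and 0.69. The limma fit called 0 of the 10 terms (0.547% of all genes passed), and 1 had an unadjusted p under 0.05. That gene was Angpt2, at -0.71 ± 0.22 (unadjusted p = 0.00631, adjusted p = 0.249), and its adjusted p was 0.0234 without WT replicate 1. The terms called over all genes, 109 here, ranged from 48 without Nkx2-5 KO replicate 1 to 264 without double KO replicate 3.

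**Figure D3:**
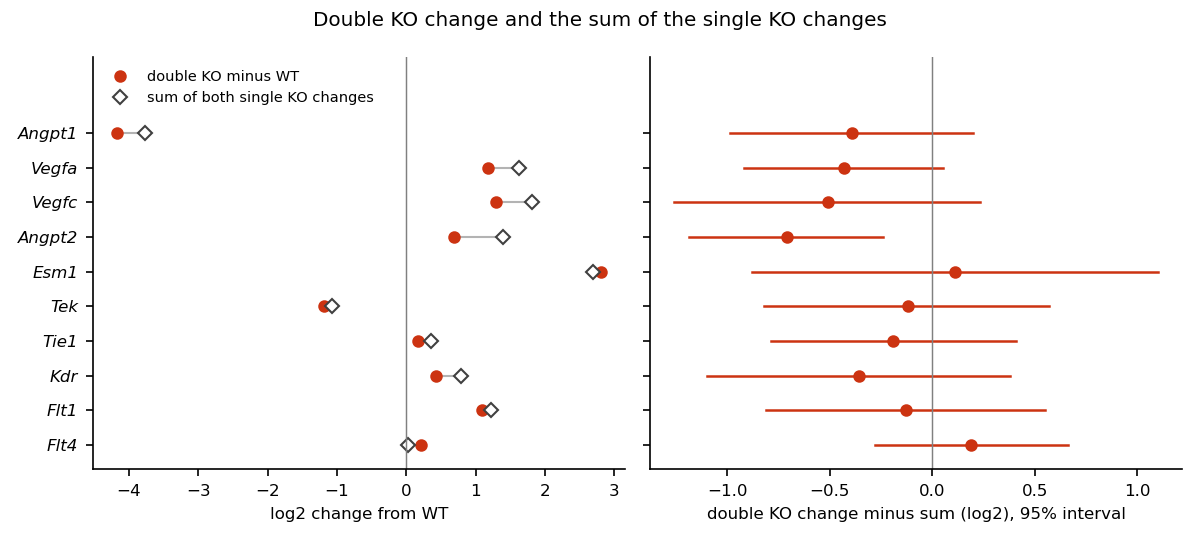
Left, log2 change from WT in double KO hearts (filled circles) and the sum of the Nkx2-5 KO and Tbx5 KO changes (open diamonds) for each gene; right, the double KO change minus that sum with its 95% interval. The interval crosses 0 for every gene but Angpt2 (-1.19 to -0.24).

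Of 21 other VEGF and angiopoietin pathway genes, 20 were measured, and 0 were higher and 1 lower in Nkx2-5 KO, 0 and 0 in Tbx5 KO, and 3 and 1 in double KO hearts, with median changes of 0.14, 0.09 and 0.16. The shares that passed, 5.0% in Nkx2-5 KO and 20.0% in double KO hearts, were near those of all genes (4.43% and 23.4%). Nrp1, a co-receptor for VEGF-A, fell by 0.40 ± 0.10 in Nkx2-5 KO (adjusted p = 0.0493) and by 0.52 ± 0.10 in double KO hearts (adjusted p = 0.00338). In double KO hearts, Dll4, the Notch ligand of VEGF-stimulated endothelium, rose by 0.69 ± 0.14 (adjusted p = 0.00326). The other rises there were Plcg1 (0.48 ± 0.13, adjusted p = 0.0172), a phospholipase downstream of KDR, and Apln (0.37 ± 0.11, adjusted p = 0.0239), the tip-cell peptide apelin. Ptprb, the phosphatase that acts on TIE2, differed by -0.56 ± 0.15 between double KO and Nkx2-5 KO hearts (adjusted p = 0.0439) and was named after its values were seen. Between Tbx5 KO and Nkx2-5 KO hearts its difference was -0.69 ± 0.15 (adjusted p = 0.0278). Against WT it was not called in Nkx2-5 KO (0.30), Tbx5 KO (-0.39) or double KO hearts (-0.27).

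Hypoxia and glycolysis genes, a set that responds to hypoxia-inducible factors as Vegfa does, were higher in the groups in which Vegfa was higher. Of 25 listed, 23 were measured, and 10 rose and 0 fell in Nkx2-5 KO, 1 rose and 0 fell in Tbx5 KO, and 16 rose and 0 fell in double KO hearts. The called shares were 43.5%, 4.35% and 69.6% beside 4.43%, 2.31% and 23.4% of all genes, and the median changes were 0.66, 0.31 and 0.77. Between double KO and Nkx2-5 KO hearts, of 1 sex pattern, 0 rose and 0 fell where 5.56% of all genes were called. Egln3, a prolyl hydroxylase that is itself hypoxia-induced, rose by 1.96 ± 0.45 in Nkx2-5 KO (adjusted p = 0.0303) and by 1.99 ± 0.45 in double KO hearts (adjusted p = 0.00694), from WT values spread over 7.84 to 10.47. The glucose transporter Slc2a3 rose by 1.40 ± 0.16 in Nkx2-5 KO (adjusted p = 0.000708), 0.79 ± 0.16 in Tbx5 KO (adjusted p = 0.0227) and 1.40 ± 0.16 in double KO hearts (adjusted p = 8.2e-05). The mean level of the list was 11.80 to 11.96 in Nkx2-5 KO, 11.39 to 11.77 in Tbx5 KO, 11.96 to 12.01 in double KO, and 10.86 to 11.53 in WT hearts, where WT replicate 1 was lowest. WT replicate 1 was also the lowest WT array for Vegfa, Vegfc, Flt1, Kdr, Tie1, Flt4, Esm1 and Tek.

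Among 8 hypoxia-inducible factors and their regulators, 1 was higher and 1 lower in Nkx2-5 KO, 1 higher and 0 lower in Tbx5 KO, and 0 higher and 1 lower in double KO hearts. The double KO share of 12.5% lay below the 23.4% of all genes. The Tbx5 KO share, also 12.5%, lay above the 2.31% of all genes called there. The Nkx2-5 KO share likewise lay above the 4.43% of all genes in that comparison. Hif1a, the oxygen-regulated subunit, fell by 0.44 ± 0.09 in double KO hearts (adjusted p = 0.00359). Its fall in Nkx2-5 KO hearts was 0.38 ± 0.09 (adjusted p = 0.0319). Hif1an, which encodes an inhibitor of HIF-1, rose by 0.59 ± 0.15 in Nkx2-5 KO (adjusted p = 0.0442), and Epas1, which encodes HIF-2 alpha and is strong in endothelium, rose by 0.63 ± 0.14 in Tbx5 KO hearts (adjusted p = 0.0322). The part of the hypoxia genes in the Vegfa, Vegfc, Flt1 and Esm1 changes was not tested.

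**Figure D4:**
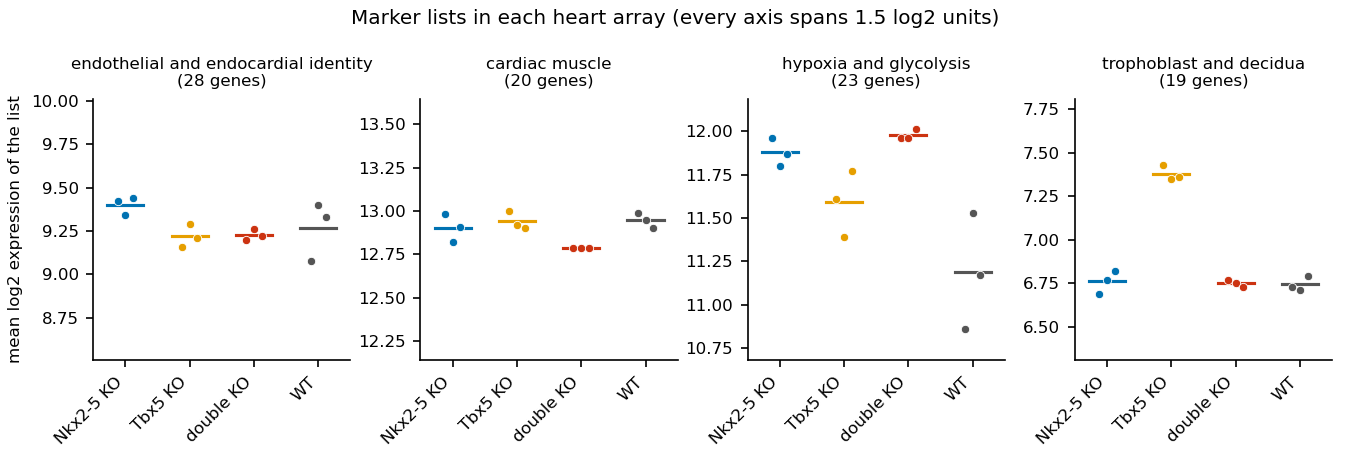
Mean log2 expression of 4 gene lists (vertical axes, each spanning 1.5 log2 units) on every array, by group from Nkx2-5 KO, Tbx5 KO and double KO to WT; points are arrays and bars group means. The hypoxia list lies at 11.96 to 12.01 in double KO against 10.86 to 11.53 in WT hearts, and the trophoblast list is raised on the Tbx5 KO arrays alone (7.35 to 7.43).

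Of 19 measured trophoblast and decidua genes (25 listed), 5 were higher and 1 lower in Tbx5 KO, led by the placental prolactin-family gene Prl3d3 (4.32 ± 0.35, adjusted p = 4.71e-05). In Nkx2-5 KO hearts 0 were higher and 1 lower (Cited1, -1.14 ± 0.22, adjusted p = 0.0158), and in double KO hearts 1 was higher and 1 lower (Cited1, -1.92 ± 0.22, adjusted p = 9.34e-05). The level of that list was 6.69 to 6.82 in Nkx2-5 KO, 7.35 to 7.43 in Tbx5 KO, 6.73 to 6.77 in double KO, and 6.71 to 6.79 in WT hearts. Placental and decidual cells also make angiopoietins and VEGF, and their part in the Tbx5 KO values was not tested. In double KO hearts 0 erythroid genes were higher and 4 lower of 9 measured (Hbb-bh1, an embryonic globin, -2.21), and of 11 platelet and other blood genes 1 was higher and 1 lower (Pf4, a platelet chemokine, -3.55). Foregut genes there were 4 higher and 0 lower of 19 (Cldn7, an epithelial claudin, 0.84), and epicardial genes 0 higher and 4 lower of 14 (Tbx18, -0.94). In Nkx2-5 KO and Tbx5 KO hearts 0 erythroid and 0 foregut genes were called; blood genes had 1 higher in Nkx2-5 KO (Kit, 1.38) and 0 in Tbx5 KO, and epicardial genes 0 in Nkx2-5 KO and 2 lower in Tbx5 KO (Tbx18, -0.96). Beside the 23.4% of all genes called in double KO hearts, the shares were 10.5% of trophoblast, 44.4% of erythroid, 18.2% of blood, 21.1% of foregut and 28.6% of epicardial genes, of which those of blood, foregut and epicardial genes were near it. In Tbx5 KO hearts 31.6% of trophoblast and 14.3% of epicardial genes were called beside 2.31% of all genes.

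The genes whose values ran most like each of the 7 called genes were found by Pearson's r over the 12 arrays, which share group differences and normalization, so r is a description. Closest to Angpt1 were Idh3a, a subunit of a citric acid cycle dehydrogenase (r = 0.979), Mrps6 (0.976), a mitochondrial ribosomal protein, and Ostc (0.975). Vegfa ran with the histone demethylase gene Kdm5b (0.981), Ubr2 (0.979) and Ccni (0.975). For Vegfc they were Edil3 (0.965), which encodes an integrin-binding matrix protein of endothelium, Baz2b (0.964) and Cxxc5 (0.964). Flt1 ran with Pfkfb3 (0.972), a glycolytic regulator in the hypoxia list, Mxi1 (0.972) and Ero1a (0.967), an oxidase of the endoplasmic reticulum. Esm1 had Tanc1 (0.958), Mga (0.950) and Zfp292 (0.949), and Tek had Matr3 (0.947), Gngt2 (0.918) and Pithd1 (0.914). Angpt2 had the loosest neighbours, Pan3 (0.900), Ptk6 (0.877) and Psg23 (0.875). Of these, Idh3a changed by -0.79, -0.71 and -1.55, and Edil3 by 1.53, 0.84 and 1.72, with Nkx2-5 KO first, then Tbx5 KO and then double KO.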

How the data were processed

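Dissected E8.75 hearts were measured on 12 Affymetrix arrays, 4 groups of 3. Per the labels' protocols, RNA came from a PicoPure kit, was made into cDNA with NuGEN Ovation and was labelled with biotin. The deposited values are the authors' log2 expression of each probe set, from 3.21 to 14.7; their software, background correction and normalization are not given in the sources. The scale was judged from the values, and no further normalization was applied. The number of arrays limits the precision.

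Of 35557 probe sets, 21789 carried 1 symbol in the platform annotation, 1621 several and 12147 none listed. The Entrez numbers of 21698 of the first were found in RefSeq (GRCm38.p6), which changed 0 symbols. For 999 genes with more than 1 such probe set the highest on average was kept, giving 19938 genes with no filter on dim ones. Gene coordinates are RefSeq's. Arrays of a group correlated at 0.969 to 0.984, and 0 pairs were identical.

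A model of 4 group means was fitted to all genes with limma 3.58.1 (lmFit and eBayes; R 4.3.3) with 8 residual and 4.51 prior degrees of freedom. Each of 7 comparisons was tested two-sided, with Benjamini-Hochberg adjustment over all 19938 genes and calls at an adjusted p under 0.05. The code was tested on simulated data. Tables used Python 3.11.15, pandas 2.3.3 and numpy 2.4.6.

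The genes and the 11 gene lists were chosen with earlier results of these data known. Named are the 10 genes, the called gene with the largest change of each list in each knockout against WT, up to 4 called genes of the other pathway genes and the hypoxia list, the targeted and sex-linked genes, and the 3 genes closest by r to each called gene; predicted genes, small RNAs and olfactory or vomeronasal receptors were left out of the last. Of the 5 motifs, the ETS site and the GC box were added after the windows had been seen. Alternatives were renewed quantile normalization, median centring, an intensity trend, array weights, only the arrays compared, a replicate block, no genes in the dimmest 25%, mean probe sets, and each array left out.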

Additional observations from a re-analysis of the deposited data

How the results depend on the processing

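Over the 10 genes, 7 comparisons and all alternatives, 948 values kept their direction and side of the threshold, 22 gained a call, 35 lost one and 25 changed sign. Those 25 were uncalled in both fits, with an adjusted p of at least 0.721 in the alternative and at least 0.571 in the main fit. With renewed quantile normalization Tie1 in Tbx5 KO against WT was 0.01, and with array weights it was 0.00, as was Vegfc in double KO against Nkx2-5 KO (-0.00). The others came from leaving out 1 array, which gave ranges of -0.04 to 0.24 for Flt4 in Nkx2-5 KO, and of -0.25 to 0.19 for Tie1, -0.17 to 0.32 for Kdr and -0.24 to 0.04 for Flt4 in Tbx5 KO, all against WT. The range was -0.06 to 0.39 for Tie1 in double KO against WT, -0.07 to 0.07 for Vegfc and -0.02 to 0.17 for Flt4 in double KO against Nkx2-5 KO, and -0.03 to 0.09 for Angpt2 in double KO against Tbx5 KO. For non-additive terms it was -0.22 to 0.37 for Esm1, -0.32 to 0.15 for Tek, -0.41 to 0.03 for Tie1 and -0.35 to 0.17 for Flt1. The 7 calls in double KO against WT held in every alternative. With array weights, the genes called numbered 7 in Nkx2-5 KO against WT, 5 in double KO against Tbx5 KO and 3 in Tbx5 KO against Nkx2-5 KO; with renewed quantile normalization, 5 were called in double KO against Tbx5 KO; with only the arrays compared, 1 in Tbx5 KO against WT; the cause was not tested, except that the last used fewer arrays. Leaving out each array gave 2 to 7 calls in Nkx2-5 KO, 1 to 3 in Tbx5 KO and 7 to 7 in double KO against WT, 2 to 2 in double KO against Nkx2-5 KO, 1 to 4 in double KO against Tbx5 KO, 0 to 0 in Tbx5 KO against Nkx2-5 KO, and 0 to 1 non-additive terms. Over all genes the same gave 169 to 903, 212 to 465, 3254 to 4610, 521 to 1255, 1300 to 2207, 254 to 428 and 48 to 264 in that order. Over all genes, array weights called (against the count without them) 2132 against 884 in Nkx2-5 KO, 933 against 461 in Tbx5 KO, 2481 against 1109 in double KO against Nkx2-5 KO, 1424 against 476 in Tbx5 KO against Nkx2-5 KO and 343 against 109 non-additive terms; the arrays compared alone called 570 against 1109 in double KO against Nkx2-5 KO.

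For pairing, the group mean of each gene was first subtracted, and arrays of different groups were then correlated on what remained. Those with the same replicate number correlated at -0.27 to 0.211 over 18 pairs, and the others at -0.26 to 0.261 over 36. On these values 0 arrays correlated best with their own number in every other group, so the numbers were not taken as pairing. With the replicate block the counts were 4, 3 and 7 against WT, 2 and 3 for double KO against Nkx2-5 KO and Tbx5 KO, 0 for Tbx5 KO against Nkx2-5 KO and 0 non-additive terms (61 against 109 over all genes). Tek in double KO against Nkx2-5 KO (adjusted p = 0.0683) and Vegfa in double KO against Tbx5 KO (0.0527) lost their calls under the block, and Vegfc in double KO against Tbx5 KO gained one (0.044). With no detection calls in the table, signal over background limits Angpt1 in double KO hearts.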
